A study of Mus musculus with 22 samples.

Results

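Hspa5, Sdf2l1 and Pdia4 are 3 genes of the protein-folding machinery of the endoplasmic reticulum (ER), measured here after arsenic in the mouse embryo's anterior neural tube. The members were the probes whose platform gene symbol was Hspa5, Sdf2l1 or Pdia4. Each symbol had 1 probe, so 3 probes stood for 3 genes, of 10500 probes that carried 9230 genes. All 3 passed the filter on dim probes and had a value on every array. Their numbers on the array were 3062 for Hspa5, 1955 for Sdf2l1 and 1585 for Pdia4.

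All embryos lacked Folr2, a membrane protein that binds folate, and no group with the gene was part of the study. Dams were injected into the abdominal cavity on gestational day (GD) 7 at hour 12 and again on GD8 at hour 12. The arsenic groups received sodium arsenate at 9.6 mg arsenic per kg and the control groups received water at 10 µL per g body weight. Dissection 3 h after the later injection gave the GD8:15 arrays (4 control, 4 arsenic), dissection after 12 h those of GD9:00 (4 control, 3 arsenic) and after 24 h those of GD9:12 (3 control, 4 arsenic). Since separate dams are not stated, the p-values measure only the spread between these arrays, which may in part be technical.

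Proteins that enter the ER are folded by chaperones and cross-linked by oxidoreductases. Hspa5, also called BiP, is the Hsp70-type chaperone of the ER lumen and holds the stress sensors of the membrane in their resting state. Sdf2l1 is a lumenal protein that works with J-proteins and Hspa5 to keep unfolded proteins from aggregating. Pdia4 is a protein disulfide isomerase. When unfolded protein accumulates, the sensors IRE1, ATF6 and PERK start the unfolded protein response, and ATF6 and XBP1 raise transcription of such chaperones. PERK shares with GCN2, the sensor of amino acid shortage, and with the heme-regulated kinase HRI the output through the transcription factor ATF4, which raises genes of amino acid supply. The question described here is whether the ER chaperones moved with the ATF4-dependent genes after arsenic. Values of both are given side by side, without a test between them.

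The 250 bases before each annotated start are shown because the unfolded protein response acts on chaperone genes through elements in this stretch. They are from RefSeq (GRCm38.p6), written 5′ to 3′ in the direction of the gene, at chr2:34771840-34772089 (plus strand) for Hspa5, chr16:17132384-17132633 (minus strand) for Sdf2l1 and chr6:47813513-47813762 (minus strand) for Pdia4. Capitals mark CCAAT on either strand, the letters of the NF-Y box, and in Hspa5 also the CCACG that completes an ER stress element.
Hspa5: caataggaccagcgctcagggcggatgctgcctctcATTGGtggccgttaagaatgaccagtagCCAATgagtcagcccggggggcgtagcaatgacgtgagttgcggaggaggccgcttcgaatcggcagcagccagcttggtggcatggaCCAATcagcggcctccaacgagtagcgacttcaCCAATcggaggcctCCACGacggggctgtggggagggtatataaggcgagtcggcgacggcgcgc
Sdf2l1: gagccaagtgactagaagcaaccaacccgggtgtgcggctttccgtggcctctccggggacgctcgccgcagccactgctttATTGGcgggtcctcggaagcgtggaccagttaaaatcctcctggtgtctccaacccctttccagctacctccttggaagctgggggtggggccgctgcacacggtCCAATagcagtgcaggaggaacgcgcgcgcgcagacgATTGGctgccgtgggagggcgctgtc
Pdia4: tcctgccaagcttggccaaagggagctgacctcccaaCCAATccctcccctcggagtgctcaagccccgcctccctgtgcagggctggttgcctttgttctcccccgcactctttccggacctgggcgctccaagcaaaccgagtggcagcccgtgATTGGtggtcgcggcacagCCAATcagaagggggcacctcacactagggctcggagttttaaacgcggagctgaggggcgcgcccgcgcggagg

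Searched on both strands, the ER stress element (CCAAT, then 9 bases of any kind, then CCACG) had 1 match in Hspa5, from 65 to 47 bases before the start, and 0 in Sdf2l1 and Pdia4. This element was held by 37 of the 32851 RefSeq promoters of this length (0.113%). CCAAT alone had 4 matches in Hspa5, 1 of them inside the element, and 3 each in Sdf2l1 and Pdia4, against 33.8% of all promoters with a match or more. The CCACG of the element occurred 3 times in Sdf2l1, each on the opposite strand, and was absent from the Pdia4 window. The other form of the element, in which 1 base separates ATTGG from CCACG, and the amino acid response element TGATGNAA had 0 matches in all 3, against 0.0304% and 3.45% of all promoters. Only exact matches of the fixed letters were counted, so a form of an element with a changed letter was missed. The counts of 0 thus do not show that Sdf2l1 or Pdia4 lacks such an element. A match is a description of letters in this window and shows no binding.

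Array medians lay between 123 and 291 intensity units, and the mean correlation of an array with its group was 0.870 to 0.971. The Folr2 probe was below the filter, with group means of 6.85 to 7.15 on the log2 scale. The 12 neural tube markers on the array, Sox2 and Otx2 among them, passed the filter. Of 92 genes with 2 tested probes, the levels of the pair correlated with a median r of 0.049 over the 22 arrays, against -0.002 for random pairs of probes, and 42 of the pairs correlated below 0. Some probes may therefore not measure the gene they are annotated to, and each gene name below stands for 1 probe. The array titles carry a code whose leading digits form 4 series, called A to D here; the labels do not say what the code means. At GD8:15 all 4 arsenic arrays and 2 controls were of series D, 1 control of A and 1 of C. Every array of GD9:00 was of series C, and at GD9:12 1 control was of B and the rest of C.

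At GD8:15 the Hspa5 probe read 632, 484, 976 and 494 intensity units in the controls and 574, 337, 372 and 364 in the arsenic arrays. After quantile normalisation, which gives all arrays the same distribution, 3 of the 4 arsenic arrays lay below every control, and the fourth lay within the control range. No overlap in this direction was seen for 1.93% of all probes, and Hspa5 was not among them. The controls averaged 9.40 ± 0.43 on the log2 scale and the arsenic arrays 8.56 ± 0.45 (SD, n = 4 each). The difference was -0.84 ± 0.38 (SE; 95% interval -1.63 to -0.05), or 1.79-fold lower. It did not pass the limma test over 7833 probes (Benjamini-Hochberg adjusted p = 0.641). The exact two-sided permutation test over the 8 arrays gave p = 0.0857, where the smallest p this design allows is 0.0286.

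Sdf2l1 read 2430, 2237, 1679 and 2128 in controls and 1826, 1762, 693 and 1245 after arsenic at GD8:15. On the normalised scale 2 of 4 arsenic arrays lay below every control, and replicate 3 of the arsenic group was lowest. Means were 11.27 ± 0.35 and 10.50 ± 0.64 (SD, n = 4 each). The limma difference of -0.77 ± 0.43 (SE; interval -1.68 to 0.14) did not pass (adjusted p = 0.792; exact two-sided permutation p = 0.0857). Without arsenic replicate 3 it was -0.48.

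The normalised log2 levels of Pdia4 at GD8:15 were 7.73, 7.68, 8.14 and 7.53 in controls and 6.86, 7.69, 7.71 and 7.55 after arsenic. The groups overlapped except for arsenic replicate 1, which stood at percentile 1.43 of the probes on its array. The limma difference was -0.32 ± 0.24 (SE; interval -0.83 to 0.20; adjusted p = 0.917; exact two-sided permutation p = 0.343). Without that array it was -0.12.

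All 3 differences were thus below 0 at GD8:15, and 0 passed, as was so for 0% of all tested probes, of which 49.9% had a negative difference. By an unadjusted p under 0.05, 7.29% of probes differed. An unadjusted p under 0.05 with a lower arsenic mean, which Hspa5 had, was found in 3.29% of probes. Among the 6 arrays of series D, without the 2 controls of series A and C, the difference at GD8:15 was -0.49 for Hspa5, -0.93 for Sdf2l1 and -0.14 for Pdia4. Control replicate 3, the only series C array of the stage, was the highest control for Hspa5 and the lowest for Sdf2l1.

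Some of the tissue marker lists also stood apart between the groups of GD8:15. The summed level of the 10 tested heart and muscle genes was 18910 to 38050 in controls and 5859 to 13020 after arsenic, with 8 of 10 lower and Tnnt2 and Tnnc1 below the filter. The summed neural tube markers were 6964 to 7484 and 3889 to 4863, with 11 of 12 lower. The summed mesenchyme and neural crest markers were 6424 to 7166 and 2769 to 5705, with 7 of 9 lower. Of all tested probes 49.9% were lower at this stage. The other lists overlapped between the groups. Blood markers were 4797 to 8268 in controls and 3774 to 27180 after arsenic, and endothelium markers 1075 to 1583 and 1069 to 1790. Visceral endoderm markers were 1281 to 1609 and 1271 to 1668, and surface ectoderm markers 1676 to 2189 and 1459 to 1975. The level of Xist, transcribed from the inactive X chromosome, was 7.02 to 7.10 in controls and 7.86 to 9.06 after arsenic. Eif2s3y, a gene of the Y chromosome, went the other way, with 7.66 to 7.79 in controls and 7.11 to 7.3 after arsenic. Both genes vary with the sex of the embryos, whose balance between the groups is not known. The part of the tissue markers and of sex in the chaperone differences was not tested. At GD9:00 the summed heart and muscle genes were 4968 to 21830 in controls and 11300 to 27560 after arsenic, the neural tube markers 6317 to 10500 and 6376 to 6986, and Xist 7.10 to 8.71 and 9.77 to 10.35. At GD9:12 the neural tube sums were 12580 to 18450 and 10800 to 12250, and Xist was 6.88 to 11.34 and 6.93 to 7.145. Eif2s3y was 7.06 to 7.89 in controls and 7.015 to 7.18 after arsenic at GD9:00. At GD9:12 it was 7.06 to 7.66 and 7.515 to 8.14. In whole tissue, fewer cells of a type and less RNA per cell cannot be told apart.

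**Figure D1:**
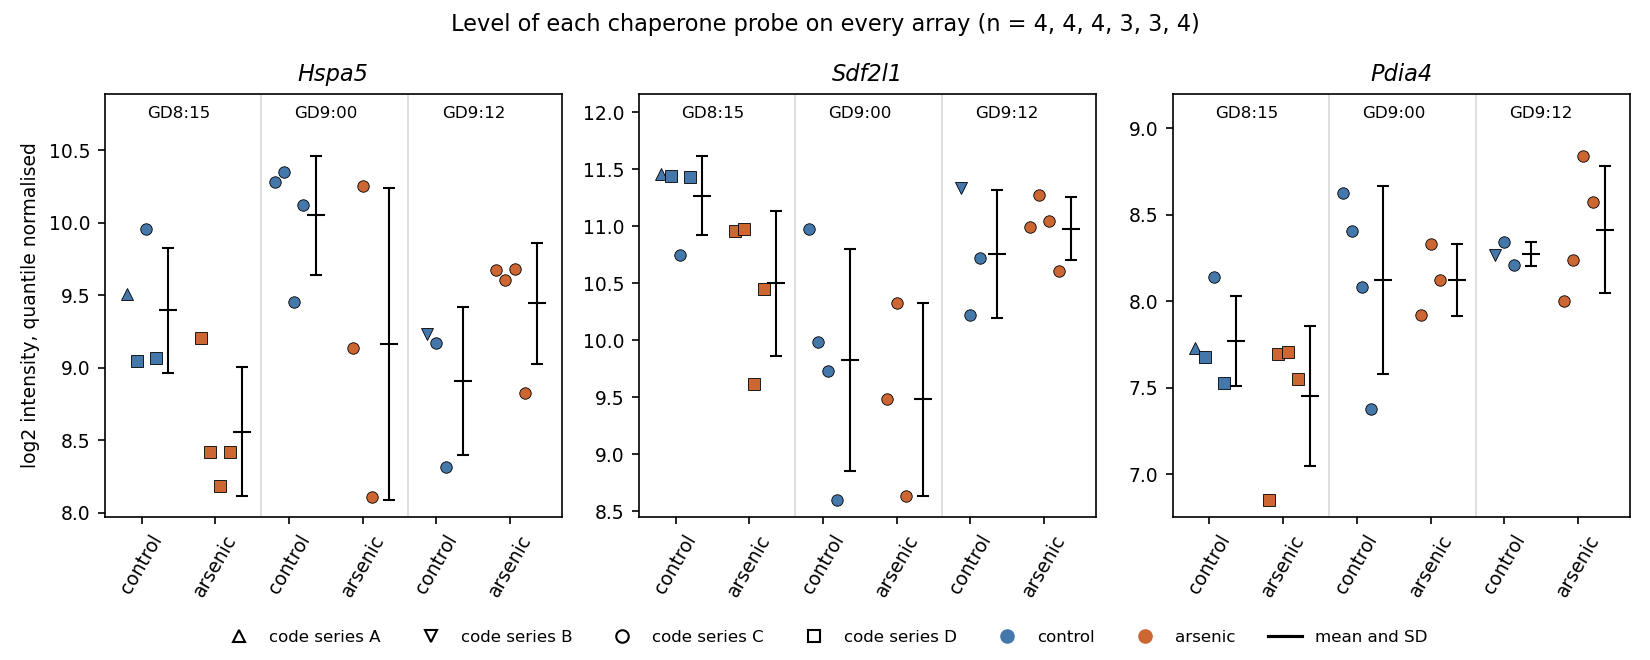
Quantile-normalised log2 intensity (vertical axis) of the Hspa5, Sdf2l1 and Pdia4 probes on each of the 22 arrays, by stage and treatment. Points are arrays, their shape is the code series, and bars are the mean ± SD. At GD8:15 3 of 4 arsenic arrays lie below all controls for Hspa5, and at GD9:00 the 3 arsenic arrays span 8.11 to 10.25.

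At GD9:00 Hspa5 read 940, 1036, 518 and 815 in controls and 418, 935 and 270 after arsenic. The arsenic arrays spread widely, and 2 of 3 lay below every control, while 7.23% of probes had all arsenic arrays below all controls. Replicate 2 stood among the controls at a log2 level of 10.25 and replicate 3 was at 8.11. The difference was -0.89 ± 0.41 (SE; interval -1.74 to -0.04; limma adjusted p = 0.375; exact two-sided permutation p = 0.171, where 0.0571 is the smallest possible). It was -1.43 without arsenic replicate 2 and -0.36 without arsenic replicate 3. An unadjusted p under 0.05 with a lower mean was more common at this stage, in 8.02% of probes (12.6% in either direction), and 0% passed.

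Sdf2l1 read 1516, 814, 622 and 283 in controls and 508, 978 and 353 after arsenic at GD9:00, and the groups overlapped fully. Its difference was -0.34 ± 0.47 (SE; interval -1.32 to 0.64; adjusted p = 0.793), and it was 0.08 without arsenic replicate 3. Pdia4 read 296, 254, 189 and 117 in controls and 226, 254 and 273 after arsenic. Its difference was 0.001 ± 0.26 (SE; interval -0.55 to 0.56; adjusted p = 0.999), which does not show that the groups were alike. Control replicate 4 was the lowest control for both genes.

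At GD9:12 the order for Hspa5 was the opposite, with 891, 815 and 399 in controls and 1191, 1282, 1193 and 584 after arsenic. On the normalised scale 3 of 4 arsenic arrays lay above every control. The difference was 0.54 ± 0.41 (SE; interval -0.31 to 1.39; limma adjusted p = 1, exact permutation p = 0.171), and 0.24 without control replicate 3. Of all probes 0% passed, 1.28% had an unadjusted p under 0.05 and 2.17% had all arsenic arrays above all controls. Sdf2l1 read 4144, 2123 and 2798 in controls and 3292, 4727, 3474 and 2471 after arsenic, with a difference of 0.22 ± 0.47. Pdia4 read 427, 387 and 363 in controls and 341, 354, 627 and 476 after arsenic, with a difference of 0.14 ± 0.26. For both of these genes the groups overlapped.

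The change of the arsenic difference between stages was tested directly. For Hspa5 the difference at GD9:12 exceeded that at GD8:15 by 1.38 ± 0.55 (SE; limma adjusted p = 1) and that at GD9:00 by 1.43 ± 0.57 (adjusted p = 0.766). Both had an unadjusted p under 0.05, which 4.15% and 6.4% of all probes had in these comparisons, and 0% passed. The joint F test over stages gave an adjusted p of 0.744 for Hspa5, 0.875 for Sdf2l1 and 0.905 for Pdia4. Of all probes 6.46% had an unadjusted p under 0.05 in that test and 0% passed. Averaged over the 3 stages, the arsenic difference was -0.40 ± 0.23 for Hspa5, -0.30 ± 0.26 for Sdf2l1 and -0.06 ± 0.15 for Pdia4 (adjusted p = 0.873, 0.877 and 0.955). Without GD9:00 arsenic replicate 3 the average was -0.22 for Hspa5 and -0.16 for Sdf2l1, and with array weights it was -0.072 and -0.066. On average 5.72% of probes had an unadjusted p under 0.05 and 0% passed. These comparisons share arrays, so they are not independent of one another.

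**Figure D2:**
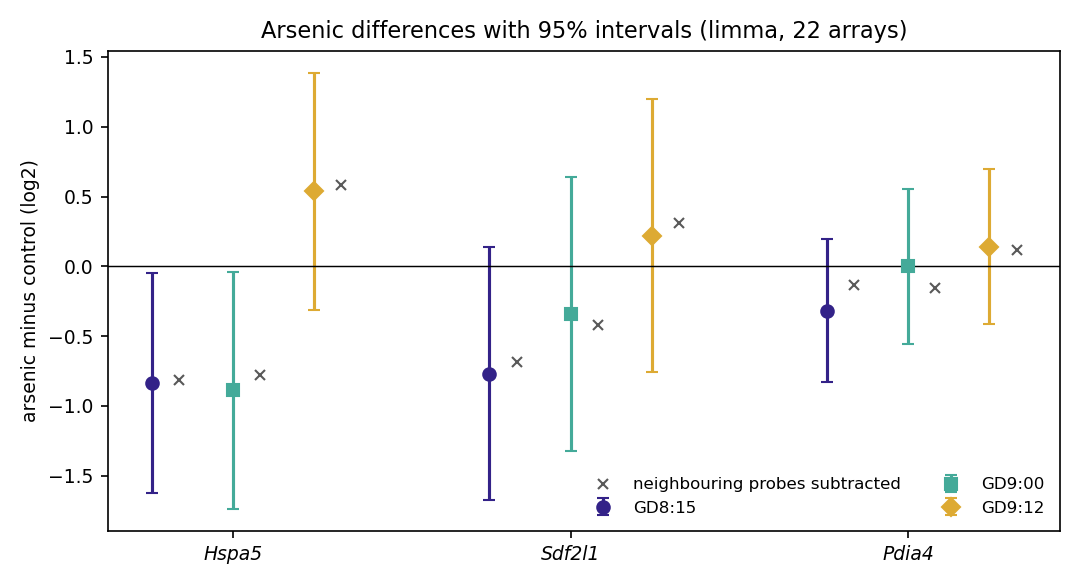
Arsenic minus control on the log2 scale (vertical axis) for each chaperone at GD8:15, GD9:00 and GD9:12. Points are limma estimates with 95% intervals and crosses are the estimates after the deviation of neighbouring probes was subtracted. The Hspa5 intervals at GD8:15 and GD9:00 end just below 0 and no adjusted p passed.

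Across the 6 groups, Hspa5 was highest in GD9:00 controls (10.05 ± 0.41) and lowest in the GD8:15 arsenic group (8.56 ± 0.45). In between came arsenic at GD9:12 (9.45 ± 0.42), control at GD8:15 (9.40 ± 0.43), arsenic at GD9:00 (9.16 ± 1.07) and control at GD9:12 (8.91 ± 0.51). Only the step below the GD9:00 controls, 0.61, exceeded the larger SD of the neighbouring groups. Sdf2l1 was highest in GD8:15 controls (11.27 ± 0.35), followed by arsenic at GD9:12 (10.98 ± 0.28), control at GD9:12 (10.76 ± 0.56), arsenic at GD8:15 (10.50 ± 0.64), control at GD9:00 (9.82 ± 0.97) and arsenic at GD9:00 (9.48 ± 0.85). Pdia4 was highest with arsenic at GD9:12 (8.41 ± 0.37), followed by control at GD9:12 (8.27 ± 0.07), arsenic at GD9:00 (8.12 ± 0.21), control at GD9:00 (8.12 ± 0.54), control at GD8:15 (7.77 ± 0.26) and arsenic at GD8:15 (7.45 ± 0.40). For these 2 genes no step between neighbours in the order exceeded the larger SD.

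Between stages, 2 of the 18 differences of these genes within an arm passed. In controls Sdf2l1 was 2.72-fold lower at GD9:00 than at GD8:15 (log2 -1.44 ± 0.43 SE, limma adjusted p = 0.0313), where 15% of all probes passed and 6.83% did so with a lower level. The call was lost when series was a block (-0.92, adjusted p = 0.863), a value that rests on the 1 series C control of GD8:15, and when low-signal runs were masked (-1.04, adjusted p = 0.0881). It was lost too with median centring (-1.11, adjusted p = 0.15), in a fit of the compared stages alone and in the series that hold both arms. It was also lost without GD8:15 control replicate 1, 2 or 4 or GD9:00 control replicate 3 or 4, over a leave-one-out range of -1.83 to -1.04. After arsenic, Pdia4 was 1.95-fold higher at GD9:12 than at GD8:15 (0.96 ± 0.24, adjusted p = 0.014), where 13.8% of probes passed and 7.23% did so with a higher level. All arsenic arrays of GD8:15 were of series D and all those of GD9:12 of series C, so stage and series cannot be told apart here. With series as a block the Pdia4 difference was 0.43 (limma adjusted p = 0.938), a value that again rests on the 1 series C control of GD8:15. Without GD9:12 arsenic replicate 3 it was 0.82 (limma adjusted p = 0.0532).

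The other 16 stage differences did not pass, where between 3.88% and 11.3% of all probes did in the other 4 steps (4.21% in arsenic from GD8:15 to GD9:00 and 7.71% in controls from GD8:15 to GD9:12). Hspa5 in controls was -1.14 ± 0.41 from GD9:00 to GD9:12 (adjusted p = 0.0765), and Sdf2l1 after arsenic was 1.496 ± 0.47 over the same step (adjusted p = 0.0859). Pdia4 in controls was 0.50 ± 0.26 from GD8:15 to GD9:12 (adjusted p = 0.289), so its rise after arsenic is not shown to differ from controls: the difference of the steps was 0.46 ± 0.36 (adjusted p = 1).

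The other ER genes were counted in lists. Of 17 tested ER folding genes 14 had a negative difference at GD8:15 and 0 passed, with a median of -0.16 against 0.001 for all probes. Lowest in p was Sdf2, the relative of Sdf2l1, at -0.95 ± 0.45 (limma adjusted p = 0.672). Its probe, number 1607, is close to that of Pdia4 (1585) and lay in a low-signal run on 1 array. The probes around Pdia4 had a median deviation of -0.59 on arsenic GD8:15 replicate 1, and their part in the Sdf2 difference was not tested. Sdf2 was followed by Fkbp9, a prolyl isomerase, at 0.61 ± 0.30, Serpinh1, the collagen chaperone, at 0.24 ± 0.13, and Calr, the lectin chaperone calreticulin, at -0.52 ± 0.31. Hsp90b1, the Hsp90 of the ER, was at 0.52 ± 0.44. Kept on the scaling of the authors, the list median was 0.11, below the median of all probes, which was then 0.21.

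Of the 10 disulfide genes, the class of Pdia4, 8 had a positive difference at GD8:15, with a median of 0.06. P4hb, the archetypal protein disulfide isomerase, was at 0.33 ± 0.28 and Pdia6 at -0.22 ± 0.20. The 12 genes of ER-associated degradation had 7 positive differences and a median of 0.04; Vcp, the segregase that extracts substrates, was at 0.54 ± 0.29 and Edem3, a mannosidase, at -0.43 ± 0.28. The 12 genes of unfolded protein response signalling also had 7 positive and a median of 0.02. Nfya, a subunit of the CCAAT-binding factor NF-Y, was at -0.46 ± 0.17 (adjusted p = 0.599), and Xbp1 was at 0.12 ± 0.14. The 23 genes of entry into the ER had 11 positive and a median of -0.02, with Spcs1, a signal peptidase subunit, at -0.69 ± 0.28 (adjusted p = 0.605).

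The amino acid response genes gave other counts at GD8:15. Of 29 tested, 27 had a positive difference and 11 of these an unadjusted p under 0.05, which 4% of all probes had in that direction; 0 passed and the median was 0.28. Chac1, which cleaves glutathione, was at 1.30 ± 0.22 and Stc2, a secreted glycoprotein, at 0.98 ± 0.17 (both adjusted p = 0.0513). Slc1a4, a transporter of neutral amino acids, was at 1.09 ± 0.21, and Atf5, a transcription factor, at 0.74 ± 0.18. Asns, which makes asparagine, was at 0.96 ± 0.32. The genes behind this list were chosen with these arrays' results known, so their direction is no independent evidence. Among 19 cytosolic and mitochondrial chaperones 14 had a positive difference (median 0.09), with Hspa1a at 1.04 ± 0.34 and Hspa1b at 1.19 ± 0.43, the heat-inducible Hsp70 genes, and Hspb1 at -0.43 ± 0.14.

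At GD9:00 the ER folding median was -0.05 with 10 of 17 negative, against 49% of all probes, and the disulfide median was -0.09. Without arsenic replicate 3 both changed sign, to 0.039 and 0.088. Pdia6 was the disulfide gene of lowest p (-0.81 ± 0.22, limma adjusted p = 0.243). Lower values were not particular to the ER lists. The median of the cytosolic and mitochondrial chaperones was -0.24 (-0.003 without arsenic replicate 3). Their genes of lowest p went the other way, Hspa1b at 1.69 ± 0.46 and Hspa1a at 1.07 ± 0.37. The degradation list had 9 of 12 negative, with Ube2g2 at -0.33 ± 0.11 and Derl2 at -0.43 ± 0.17, and the signalling list had 8 of 12 negative, with Xbp1 at -0.40 ± 0.16 and Mbtps1, the protease that cleaves ATF6, at -0.19 ± 0.07. The amino acid response list had 25 of 29 positive and a median of 0.36 (0.18 without arsenic replicate 1), with Ddit4 at 0.70 ± 0.22 and Chac1 at 0.74 ± 0.24. At GD9:12 the ER folding median was 0.10 (-0.014 without arsenic replicate 2) with 13 of 17 positive, while 53.8% of all probes were negative. Dnajc1, the ER folding gene of lowest p, went the other way at -0.45 ± 0.14. The median was 0.17 for disulfide genes, 0.11 for ER entry genes and 0.15 for cytosolic and mitochondrial chaperones, so it was not particular to ER folding. The amino acid response median was 0.02 with 16 of 29 positive. Chac1 was then at -0.07 ± 0.24, Stc2 at -0.01 ± 0.18 and Asns at 0.55 ± 0.35. No gene of any list passed at any stage.

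**Figure D3:**
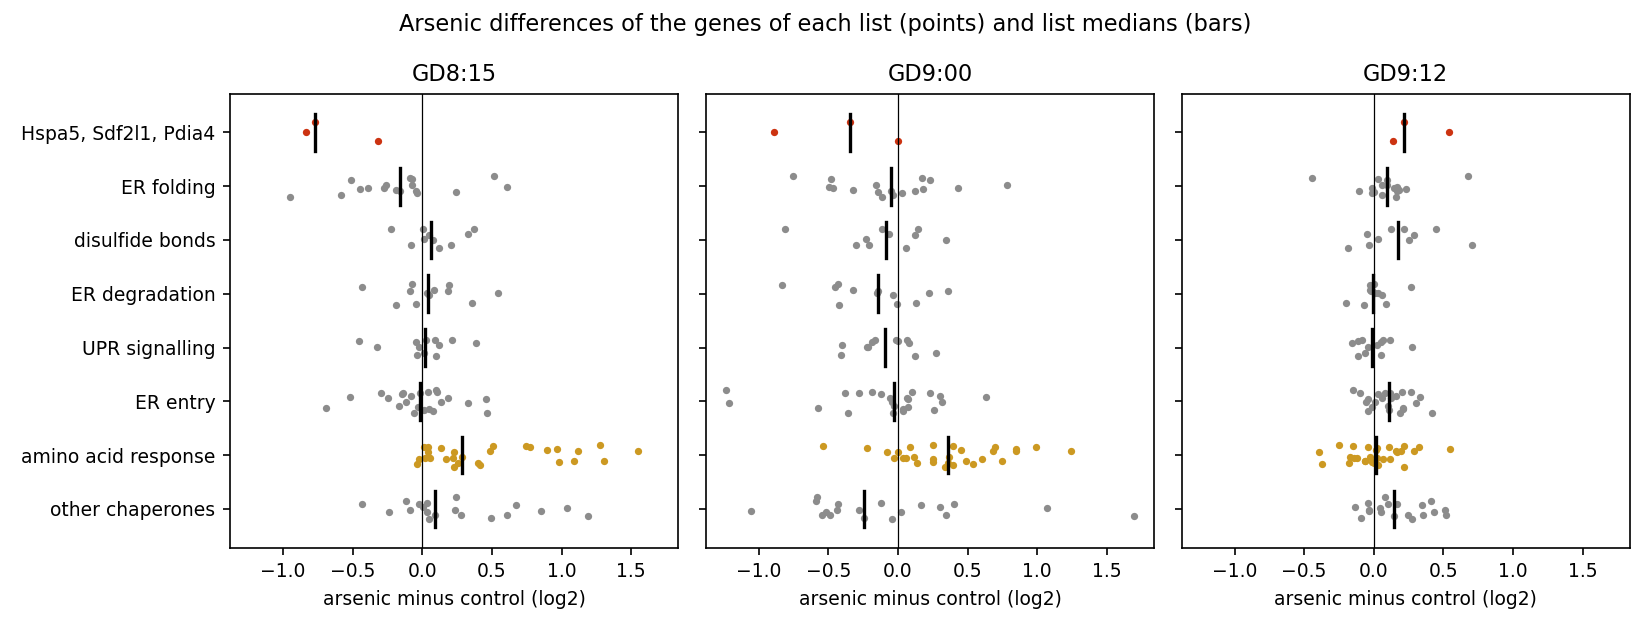
Arsenic minus control on the log2 scale (horizontal axis) for each tested gene of 8 groups at GD8:15, GD9:00 and GD9:12. Points are genes, with the chaperones Hspa5, Sdf2l1 and Pdia4 in red and amino acid response genes in yellow, and bars are list medians. At GD8:15 the amino acid response median is 0.28 and the ER folding median -0.16.

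Genes whose promoter window held an exact match of the ER stress element, as Hspa5 does, were looked up in the ER lists. They were chosen by sequence after the values were seen. Besides Hspa5, 9 had a match, of which 7 were tested, and at GD8:15 4 were lower and 3 higher (median -0.22). Calr, Canx (-0.26 ± 0.57), Dnajc3 (-0.39 ± 0.31) and Pdia6 were lower, and Hsp90b1, Ero1b (0.12 ± 0.11) and Syvn1 (0.35 ± 0.27) higher. Of the amino acid response genes 7 held TGATGNAA, and the 5 tested ones were all higher at GD8:15, from 0.02 for Slc7a11 to 1.30 for Chac1. Nearly all tested genes of that list were higher at this stage, with or without the motif, so the count is not particular to it. The list was also chosen with these results known. At GD9:00 the medians were 0.13 and 0.74, and at GD9:12 they were 0.098 and 0.03, where 3 of the 5 amino acid response genes were higher and 2 lower.

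The variation of the 3 genes within groups was compared next. Over the deviations of the 22 arrays from their group means, Pearson r of Hspa5 and Sdf2l1 was 0.46 (permutation p = 0.0339, adjusted over 3 pairs 0.102) and Spearman rho was 0.47 (permutation p = 0.0279, adjusted 0.0837). Without the 2 arrays farthest from the Hspa5 median, both of the GD9:00 arsenic group, r was 0.22. It was 0.44 in the 14 arrays of series C and 0.51 in the 6 of series D. Each permutation shuffled deviations across groups although the group means had been removed. The permutation p-values of these correlations therefore tend to be too small. Hspa5 and Pdia4 had r = 0.04 (adjusted permutation p = 0.868; rho 0.14, adjusted 0.755), with 0.22 in series C and -0.72 in D, and -0.05 without the 2 farthest. Sdf2l1 and Pdia4 had r = 0.25 (adjusted permutation p = 0.39; rho 0.07, adjusted 0.755), with 0.52 in series C and -0.52 in D, and -0.25 without the 2 farthest.

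The probes most like Hspa5 over the same deviations were those of Ruvbl1, an ATPase of chromatin remodelling (r = 0.91), Pno1 (0.84), Cxcl16 (0.84), Spcs1 (0.84) and Rpl9 (0.83). Over the levels of the 22 arrays r was 0.90 for Ruvbl1 and Spcs1 and 0.24 for Rpl9. As a description, the median r of Hspa5 was 0.41 with ER folding genes, 0.42 with disulfide genes and 0.53 with degradation genes. It was 0.35 with cytosolic and mitochondrial chaperones, 0.22 with ER entry genes and 0.19 with unfolded protein response signalling genes. With amino acid response genes it was -0.15 and with all probes 0.02. Over the tissue marker lists it ranged from -0.24 (blood, 5 genes) to 0.41 (endothelium, 4 genes), and the lists besides endothelium were at 0.03 or below. The values with disulfide and degradation genes lay above this range, and those with the remaining ER, chaperone and amino acid lists lay within it. No difference between lists was tested. For Sdf2l1 the medians were 0.17 with ER folding and -0.20 with amino acid response genes, and for Pdia4 -0.06 and 0.02. Over the tissue marker lists they ranged from -0.44 (heart and muscle) to 0.23 (endothelium) for Sdf2l1. For Pdia4 that range was -0.41 (heart and muscle) to 0.37 (blood). These correlations share arrays, scaling and depth of signal.

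For Sdf2l1 the most alike probes were Golt1b (r = 0.88), Tjp3 (0.83), Mrpl43 (0.82), Atp6v1d (0.81) and Irf3 (0.81), and for Pdia4 they were Gna11 (0.83), Gusb (0.83), Nap1l2 (0.82), Rxrb (0.80) and Pla2g4a (0.80). All but Irf3 lay within 200 probe numbers of the gene they resembled. Of the 50 probes most like Pdia4, 42 lay that close in the numbering, where 3.61% of all tested probes lie; of those most like Sdf2l1, 22 did (3.66%), and of those most like Hspa5, 3 did (3.94%). The median r with probes that close was 0.53 for Pdia4, 0.37 for Sdf2l1 and 0.11 for Hspa5.

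The neighbours were lowest on 2 arrays. On arsenic GD8:15 replicate 1 the 50 tested probes on each side of Pdia4 had a median deviation of -0.59 from their means over all arrays, and Pdia4 deviated by -1.16. On control GD9:00 replicate 4 the neighbours stood at -0.66 for both Pdia4 and Sdf2l1, and the genes at -0.63 and -1.90. Around Hspa5 the neighbours stayed between -0.16 and 0.14 on all 22 arrays. With the neighbours' median subtracted, the GD8:15 differences were -0.82 for Hspa5, -0.68 for Sdf2l1 and -0.14 for Pdia4, and 0 passed. Pdia4 in controls then rose by 0.55 from GD8:15 to GD9:00 (adjusted p = 0.0392), and Sdf2l1 after arsenic rose by 1.53 from GD9:00 to GD9:12 (adjusted p = 0.029). The r of Hspa5 was then 0.56 with Sdf2l1 (adjusted permutation p = 0.0184) and 0.46 with Pdia4 (adjusted permutation p = 0.0495). These p-values come from the same shuffling across groups, tend to be too small and are not read as calls. This subtraction was added after the data were seen.

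**Figure D4:**
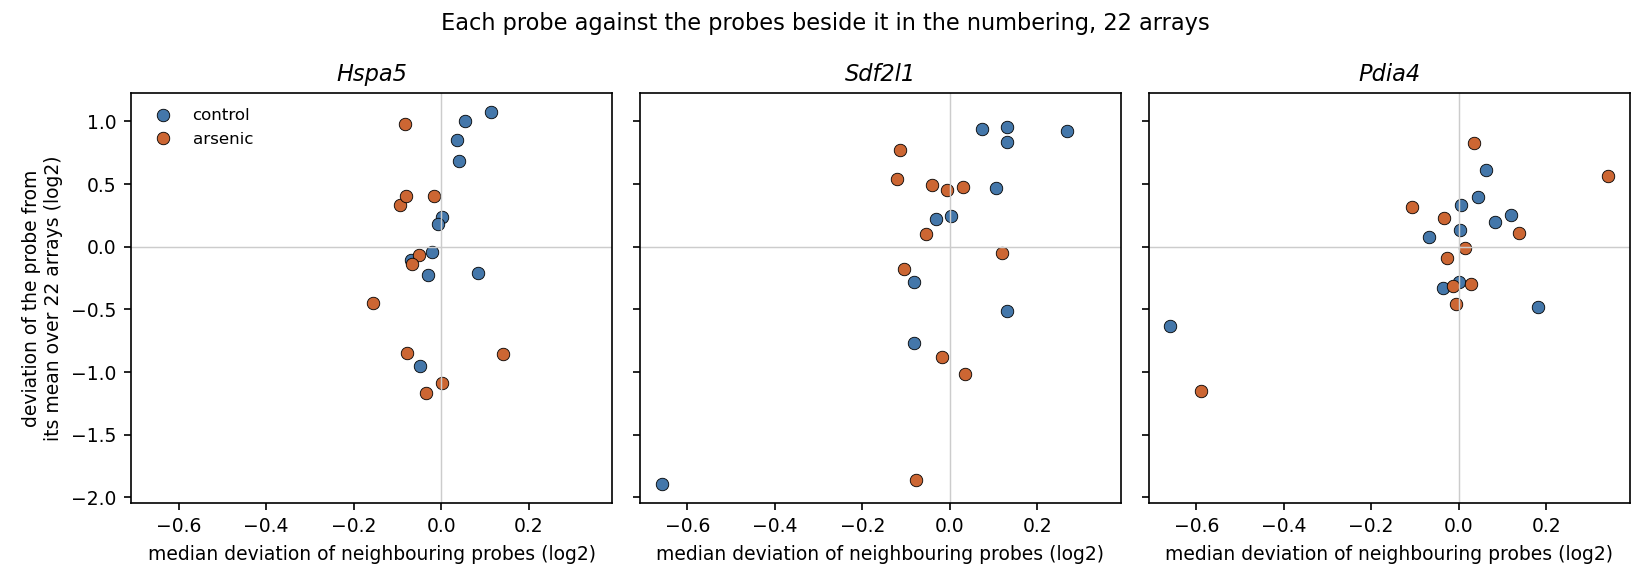
Deviation of each chaperone probe from its mean over 22 arrays (vertical axis, log2) against the median deviation of the 50 tested probes on each side of it in the numbering (horizontal axis, log2). Points are arrays, blue for control and orange for arsenic. The low neighbours of Pdia4 on 2 arrays (-0.66 and -0.59) and of Sdf2l1 on 1 (-0.66) stand apart, and those of Hspa5 do not.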

How the data were processed

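RNA from the anterior neural tube was amplified, labelled with biotin and hybridised to 22 one-colour CodeLink arrays, per the labels' protocols. The deposited values are linear intensities, scaled by the authors so that the arrays of a stage share 1 mean; how is not given in the sources used here. Values below 10, of which there were 838, were taken as placeholders and set to missing; the lowest other value was 56. Array medians on the log2 scale spanned 1.24, so log2 intensities were quantile normalised. Of 10500 probes, 9378 have 1 gene symbol, 8 several and 1114 none; a probe with several was not named. Probes entered the test if each group had 2 or more values and the mean lay above the lowest 25%; 7833 did.

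All arrays entered 1 limma fit (lmFit, eBayes; limma 3.58.1, R 4.3.3) of 6 group means, with Benjamini-Hochberg adjustment over the 7833 probes and a threshold of 0.05. Single probes were also compared by exact permutation. Correlations were compared by 100000 permutations of the deviations over all arrays, not within groups. The fit was tested on simulated data. The number of arrays limits the precision: over the tested probes the median SE of arsenic minus control was 0.184 for GD8:15 and 0.198 for both later stages. Alternatives changed the scaling, placeholders, filter, variance model, array weights, arrays in the fit, low-signal runs and code series, or left out each array.

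Named were the 3 genes, in each list the up to 4 genes of lowest p at GD8:15 and up to 2 at another stage described, the 5 probes most like each gene, and Chac1, Asns and Stc2. Xist, Eif2s3y, Xbp1, Hsp90b1 and genes with a motif were added after values were seen. The genes and lists were chosen with earlier results of these data known. Promoters are the RefSeq windows of GRCm38.p6; no protein sequences were used here. Figures were drawn with matplotlib 3.10.9 under Python 3.11.15.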

Additional observations from a re-analysis of the deposited data

Results flagged for a closer look

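In 2 of the 12 groups of 4 arrays of these genes, 1 array stood apart from the other 3 by more than Dixon's 95% critical value, which chance reaches in about 1 of 20 groups. Arsenic GD9:12 replicate 4 was the lowest of its group for Hspa5, at a log2 intensity of 8.82, with a gap to the next array of 0.909 of the group's range. Without it the Hspa5 difference at GD9:12 was 0.74, against 0.54 with it, and without control replicate 3 of that stage it was 0.24. Control GD8:15 replicate 3 was the lowest of its group for Sdf2l1, at 10.75, with a gap of 0.96 of the range. It was the only array of series C at that stage, and without it the Sdf2l1 difference was -0.94, against -0.77 with it, and without arsenic replicate 3 it was -0.48.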

How the results depend on the processing

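For the arsenic differences of the 3 genes at single stages, 183 values were obtained under other settings. They gave 0 calls and 12 changes of sign, all for Sdf2l1 or Pdia4 and none among the 63 at GD8:15. The Pdia4 difference at GD8:15 came as close to 0 as -0.023, however. Among the 183 values, 9 were ratios of group medians of deposited intensity, which have no p-value and could not be called. Adjusted p-values are from limma, and the cause of a change was not tested. With the scaling of the authors kept, the median of all probes moved to 0.21 at GD8:15 and 0.43 at GD9:00, and to 0.79 in controls from GD9:00 to GD9:12, where 5609 of 7825 probes passed. Then 1 probe passed at GD9:00 and 2 on average. Pdia4 was 0.10 on average, -0.12 from GD8:15 to GD9:00 in controls and 0.96 from GD9:00 to GD9:12 (adjusted p = 0.012), Hspa5 was 0.095 and Sdf2l1 0.47 in controls from GD8:15 to GD9:12, and Sdf2l1 was 2.09 in controls from GD9:00 to GD9:12. After arsenic the step from GD9:00 to GD9:12 was 1.10 for Hspa5 and 2.60 for Sdf2l1, and that from GD8:15 was 1.34 and 1.40, past the threshold. The r of Hspa5 and Pdia4 was -0.10.

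With median centring, Pdia4 was -0.19 by arsenic at GD9:00, where 1 probe passed. Sdf2l1 was -1.11 from GD8:15 to GD9:00 in controls (adjusted p = 0.15), 0.27 from GD8:15 to GD9:12, and 2.34 from GD9:00 to GD9:12 after arsenic (adjusted p = 0.0122). With placeholders kept, 3 probes passed at GD8:15 and Pdia4 was 0 by arsenic at GD9:00 after rounding. A trended robust fit passed 5 probes at GD8:15. Array weights passed 4 probes at GD8:15, 110 at GD9:00, 1 at GD9:12 and 13 on average. Under them Sdf2l1 was 0.004 by arsenic at GD9:00 and Pdia4 0.013 on average. The steps to GD9:12 from GD9:00 in controls were -0.97 for Hspa5 and 1.01 for Sdf2l1, and after arsenic Sdf2l1 was -1.14 from GD8:15 to GD9:00 and 1.40 onward to GD9:12, past the threshold. From the compared stages alone, Sdf2l1 in controls was -1.44 (adjusted p = 0.0771).

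With low-signal runs masked, 3 probes passed at GD8:15. Pdia4 was -0.25 by arsenic at GD9:00 and -0.10 in controls from GD9:00 to GD9:12. Sdf2l1 was -1.04 in controls from GD8:15 to GD9:00 and 1.496 after arsenic from GD9:00 to GD9:12 (adjusted p = 0.0445), and its r with Pdia4 was -0.11. With code series as a block, 2 probes passed at GD9:00. From GD8:15 to GD9:00 in controls Sdf2l1 was -0.92 and Pdia4 -0.017. After arsenic Hspa5 was -0.30 from GD8:15 to GD9:00 and -0.016 to GD9:12, and Pdia4 was 0.43 to GD9:12. In series holding both arms, 1 probe passed at GD9:00, and Sdf2l1 in controls was -1.605 (adjusted p = 0.0765). With neighbouring probes subtracted, chosen after seeing the data, 4 probes passed at GD8:15. Pdia4 was -0.16 by arsenic at GD9:00, 0.55 in controls from GD8:15 to GD9:00 and -0.074 onward to GD9:12, and Sdf2l1 after arsenic was 1.53 from GD9:00 to GD9:12.

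Leaving out each array gave ranges for the arsenic differences. Hspa5 had -1.05 to -0.64 at GD8:15, -1.43 to -0.36 at GD9:00 and 0.24 to 0.74 at GD9:12. Sdf2l1 had -0.94 to -0.48 at GD8:15, -0.76 to 0.083 at GD9:00 and -0.048 to 0.51 at GD9:12. Pdia4 had -0.41 to -0.12 at GD8:15, -0.25 to 0.17 at GD9:00, -0.002 to 0.28 at GD9:12 and -0.14 to 0.008 on average. In controls Sdf2l1 ranged from -1.83 to -1.04 between GD8:15 and GD9:00, and Pdia4 from -0.098 to 0.32 between GD9:00 and GD9:12. After arsenic from GD9:00 to GD9:12 Hspa5 ranged from -0.25 to 0.83 and Sdf2l1 from 1.08 to 1.92, and Pdia4 from GD8:15 to GD9:12 from 0.76 to 1.09. Probes passing ranged from 0 to 3 at GD8:15, 0 to 35 at GD9:00, 0 to 1 at GD9:12, 0 to 5 on average and 0 to 4 in the F test. Of the list medians at GD8:15, those of ER-associated degradation (-0.045 to 0.066), of unfolded protein response signalling (-0.008 to 0.076) and of ER entry (-0.032 to 0.044) changed sign. The r of Hspa5 and Pdia4 ranged from -0.087 to 0.24 and that of Sdf2l1 and Pdia4 from -0.11 to 0.41. Over other settings, the probes passing between GD8:15 and GD9:00 in controls, 1174, went from 35 with series as a block to 2743 on the deposited scaling, and those between GD8:15 and GD9:12 after arsenic, 1082, from 7 with that block to 1667 with array weights. No paired analysis was possible because the labels give no replicate numbers.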
